A study of Mus musculus with 12 samples.

Results

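ERV1 families are the repeat families of class I endogenous retroviruses, the inherited relatives of gammaretroviruses such as murine leukemia virus. The members were all families that the deposited tables list with the type LTR and the family ERV1. There were 140 of them among the 29264 genes and repeat families of the transient table and 141 among the 29082 of each stable-line table. In all, 143 families appeared in at least 1 table and 138 in all 3. LTR families of other classes numbered 529 in the transient table and 527 in each stable-line table. A family labelled ERV1 with a question mark was not a member, which left out 2 families per table.

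Mouse embryonic stem cells kept in serum, leukemia inhibitory factor and the kinase inhibitors CHIR99021 and PD0325901 (2i) were sequenced, with 2 libraries in each of 6 groups. The transient set compared cells that expressed mDUX, a double-homeobox transcription factor of the cleavage-stage embryo, for 24 h from a codon-altered transgene (mDux) with control cells. For the stable sets, this transgene carried a 3xHA tag and sat in a doxycycline-inducible lentivirus, in cells with a MERVL::EGFP reporter. The stable line (TRE::3xHA-mDux; MERVL::EGFP) was sequenced unsorted with 24 h of doxycycline (+dox) or without any (no dox), and as GFP-positive and GFP-negative cells sorted from cultures induced for 24 h. All 4 stable-line groups therefore carry both transgenes and stay under puromycin and G418, and the 2 sorted groups had both received doxycycline. The clones grew from single cells, and the labels do not say how many clones were used. Effects of doxycycline itself and of mDUX cannot be told apart, since no line without the transgene is among these samples. One label lists the mDux transgene for the transient control samples too, although their titles say control, and every transient fold change rests on the titles. In these bulk libraries, fewer cells of a type and less RNA per cell cannot be told apart.

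A complete endogenous retrovirus has an internal region with gag, pro and pol genes between a pair of long terminal repeats (LTRs), which hold its promoter and polyadenylation signal. Most copies in the mouse genome have recombined to solitary LTRs. In mouse embryonic stem cells these elements are held silent by histone methylation that TRIM28 and SETDB1 bring to sites read by KRAB zinc-finger proteins, and ZFP809 is the mouse zinc-finger protein known to read the proline tRNA primer-binding site of murine leukemia virus. MERVL, which drives the reporter, belongs to another class of retrovirus and is no member here. Each value is a sum over all copies of a family, so no single provirus and no genome position can be given.

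Depth was 17914954 to 21988401 counted reads for transient, 14365741 to 18388836 for unsorted and 31870748 to 53826590 for sorted libraries. Levels are given as CPM, reads scaled to 1000000 gene reads after TMM scaling within a comparison, for libraries A and B of each group in that order, and the scale differs between comparisons. Reads of all repeat families made up 8.47% and 8.57% of counted reads in mDux cells, against 10.1% and 6.74% in controls, so the 2 control libraries differed from each other. A chi-square per degree of freedom between the 2 libraries of a group was 64.6 for the controls and 2.27 to 7.53 for the other groups, where 1 is sampling noise. The 10 stem cell markers summed to 3616 to 8202 CPM in every library of their comparisons. The fibroblast markers summed to 5.62 to 27.3 CPM, with Lum and Postn at or near 0, and differed between the groups of the stable line.

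A small set of ERV1 families was higher after transient mDUX. Of 140 families, 103 passed the filter on low counts and were tested, and of these 7 were higher in mDux cells and 0 were lower (6.8% and 0%), by edgeR's quasi-likelihood test with a Benjamini-Hochberg adjusted p under 0.05. Among all genes and repeat families tested 2.2% were higher and 0.00619% were lower, among all repeat families 2.96% and 0%, and among LTR families of other classes 4.81% and 0%. The median log2 fold change was 0.19 over ERV1 families, 0.16 over all repeat families and 0.00 over genes. At an unadjusted edgeR p under 0.05, 27 of the 103 ERV1 families were higher and 1 was lower, against 192 and 4 of 1184 repeat families. DESeq2 called 9 higher and 0 lower at its adjusted threshold, with 8.74% of ERV1 and 3.72% of all repeat families higher. Both mDux libraries lay above both controls for 45 families (43.7%) and below both for 6 (5.83%), against 37.7% and 4.14% of all repeat families and 20.4% and 15.2% of all tested genes and families.

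The strongest of the 7 was RLTR30C_MM, which measured 10.0 and 9.69 CPM in mDux cells and 1.93 and 1.54 CPM in controls. Its log2 fold change was 2.52 ± 0.20 (SE; edgeR quasi-likelihood adjusted p = 0.000373). RLTR6B_Mm, an LTR of the VL30 retroviruses, measured 15.4 and 15.2 CPM in mDux cells and 5.01 and 3.03 CPM in controls, a log2 fold change of 1.95 ± 0.23 (adjusted p = 0.00285). In both families the mDux libraries were close to each other and clear of the controls.

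MER89 measured 31.1 and 32.4 CPM in mDux cells and 12.1 and 6.93 CPM in controls, with a log2 fold change of 1.76 ± 0.23 (edgeR adjusted p = 0.00563). RLTR41B was at 5.40 and 5.86 CPM in mDux cells and 1.93 and 1.44 CPM in controls (1.75 ± 0.23, edgeR adjusted p = 0.00525). A related family, RLTR41A2, changed less, with 14.3 and 14.1 CPM in mDux cells and 7.97 and 7.69 CPM in controls (0.86 ± 0.14, edgeR adjusted p = 0.0216). RLTR41A2 was the 1 family of the 7 that lost its call when a library was left out, at an adjusted p of 0.285 without mDux library A and 0.281 without mDux library B.

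Of the 7, 2 were internal regions, the part of a provirus that holds the genes. RLTR14-int was at 53.7 and 55.5 CPM in mDux cells and 27.1 and 23.1 CPM in controls (log2 fold change 1.12 ± 0.12, edgeR adjusted p = 0.00197). MERV1_I-int measured 59.2 and 62.0 CPM in mDux cells and 32.7 and 27.4 CPM in controls (1.02 ± 0.13, edgeR adjusted p = 0.00399). Their LTRs stood lower in fold. RLTR14 had a log2 fold change of 0.41 ± 0.14 and MERV1_LTR one of 0.63 ± 0.13, and neither passed the test.

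The count of transient calls turned on the control libraries. It was 33 of 107 families (30.8%) without control library A, when 34.2% of all repeat families were called higher, and 13 higher (12.4%) with 2 lower of 105 without control library B, when 8.31% of all repeat families were called higher and 1174 genes were called higher and 1399 lower. The median log2 fold change of ERV1 families was 0.35 without control library A and 0.02 without control library B, against 0.37 and -0.01 over all repeat families. All 7 families stayed called higher without either control library. The part played by the unequal controls in the other calls was not tested.

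**Figure D1:**
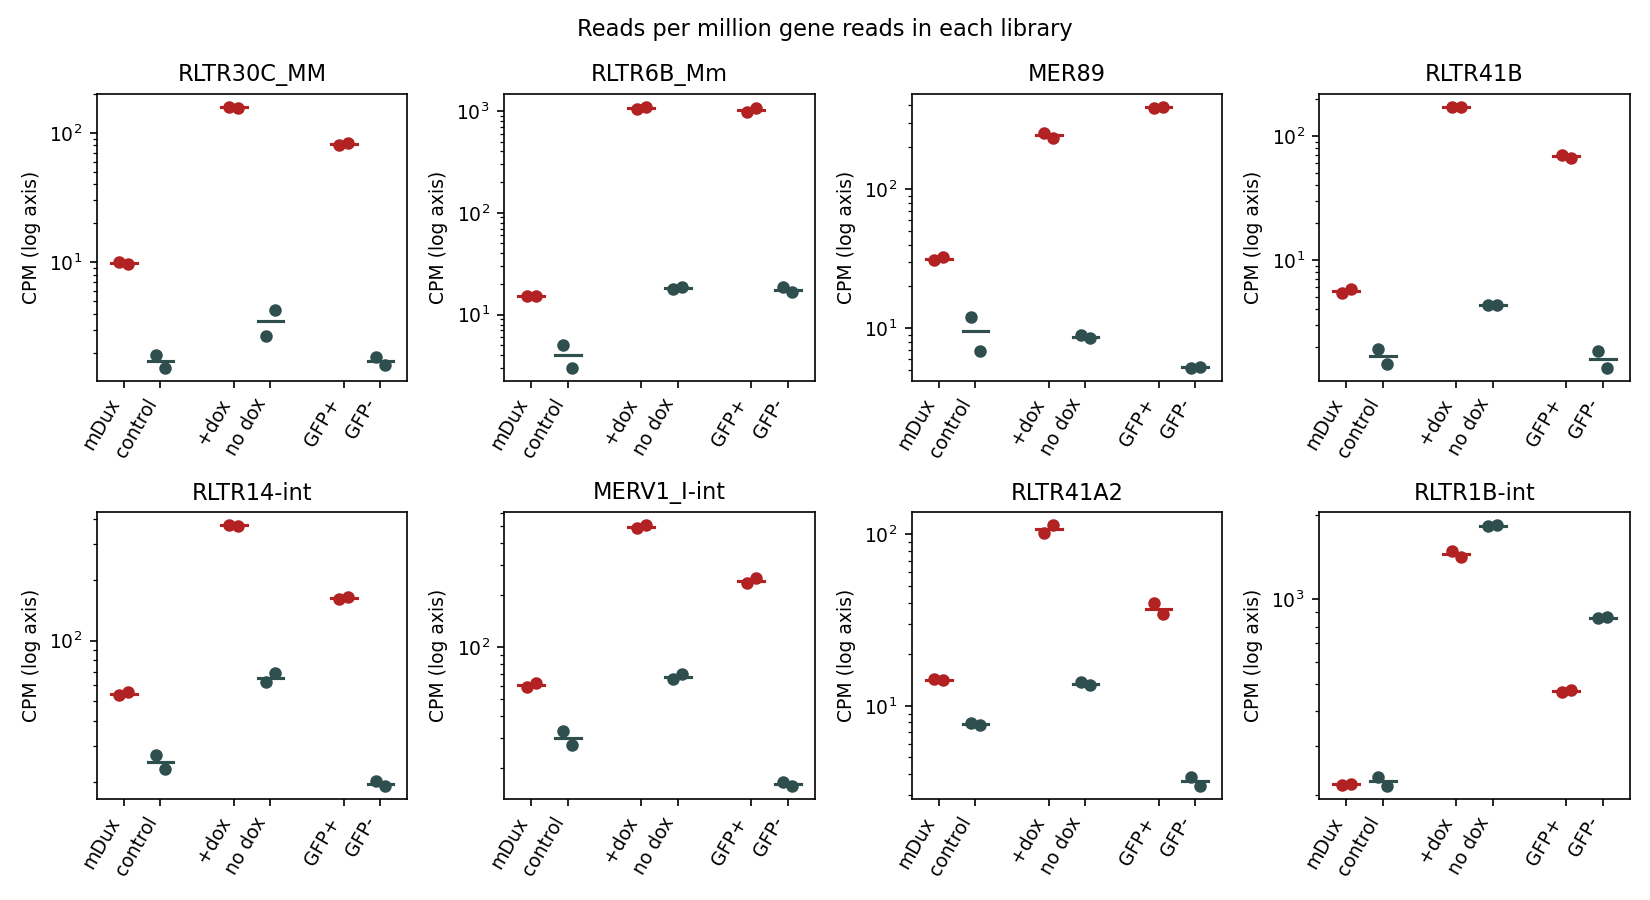
Levels of the 7 ERV1 families called higher after transient mDUX and of RLTR1B-int, in CPM (reads scaled to 1000000 gene reads) on a log axis, with 1 point per library and a line at the mean of each group of 2. The 7 families are higher in mDux, +dox and GFP-positive libraries than in their counterparts, for RLTR6B_Mm at 1039 and 1105 CPM with doxycycline against 17.7 and 18.9 CPM without it, while RLTR1B-int runs the other way in the stable line; CPM scales differ between the 3 pairs.

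Most tested ERV1 families were higher with doxycycline in the stable line. Of 141 families, 110 passed the filter and were tested, and of these 97 were higher with doxycycline and 3 were lower (88.2% and 2.73%), by the same edgeR test. The background was high: 85.8% of all repeat families were also higher and 1.26% lower, as were 90.9% and 1.01% of LTR families of other classes, against 37.9% and 29% of all tested genes and families, so the ERV1 share was near that of repeats as a whole. The median log2 fold change was 1.57 over ERV1 families, 1.43 over all repeat families, 1.71 over the other LTR families and 0.00 over genes. A change of at least 2-fold was reached by 79 of the 97. The same held for 852 of the 1092 higher repeat families and 370 of the 451 higher LTR families of other classes, a similar share. Summed over all ERV1 families, reads came to 0.759% and 0.768% of counted reads with doxycycline, against 0.387% and 0.404% without it. Reads of all repeat families came to 33.5% and 34.4% of counted reads with doxycycline, against 15.4% and 15.9% without it, so that ERV1 made up 2.27% and 2.23% of repeat reads with doxycycline and 2.52% and 2.55% without it.

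All 7 families called after transient mDUX were among those higher with doxycycline, as were 88.2% of all tested ERV1 families. By log2 fold change they were at ranks 3 to 6 for RLTR6B_Mm, RLTR30C_MM, RLTR41B and MER89 and ranks 21 to 29 for the other 3. RLTR6B_Mm measured 1039 and 1105 CPM with doxycycline and 17.7 and 18.9 CPM without it, which was 58.5-fold (log2 fold change 5.87 ± 0.08, edgeR adjusted p = 9.83e-174). RLTR30C_MM was at 159 and 154 CPM with doxycycline and 2.68 and 4.30 CPM without it (5.47 ± 0.10). RLTR41B was at 171 and 173 CPM with doxycycline and 4.37 and 4.36 CPM without it (5.30 ± 0.10). MER89 measured 255 and 235 CPM with doxycycline and 8.94 and 8.49 CPM without it (4.81 ± 0.08). In each of these 4 families both doxycycline libraries lay far above both uninduced ones, and the libraries of a group lay close together.

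Some of the steepest changes rested on few reads in uninduced cells. MER95 had 15.2 and 16.1 CPM with doxycycline and 0.391 and 0.0598 CPM without it (log2 fold change 6.10 ± 0.29). MER101B had 27 and 35 reads with doxycycline and 0 in both uninduced libraries, so it was at least 34.6-fold higher, with a floor of 3 counts over the uninduced group. RLTR1 was at 6.90 and 6.41 CPM with doxycycline and 0.261 and 0.418 CPM without it (4.24 ± 0.34), and RLTR47_MM at 8.37 and 8.55 CPM with it and 0.522 and 0.538 CPM without it (3.97 ± 0.29). MER95, MER101B, RLTR1 and RLTR47_MM passed the filter on low counts only through the doxycycline libraries. Their SEs are therefore no support for a difference. The next in order were the internal region MER52-int, with 45 and 50.0 CPM with doxycycline and 3.46 and 3.11 CPM without it (3.86 ± 0.13), and MER65D, with 10.9 and 12.7 CPM with it and 0.848 and 0.837 CPM without it (3.80 ± 0.24).

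The 10 families without a call were LTRIS2, LTRIS3, MER57-int, MER31B, RLTR1E_MM, LTR73, MER67A, MER90a, LTR109A2 and RLTR5_Mm. Their log2 fold changes ran between -0.10 for LTRIS2 and 0.44 for MER57-int and RLTR1E_MM. The remaining 31 ERV1 families had too few reads to be tested, at most 17 in any library. In sorted cells 33 families and in the transient set 37 families were likewise not tested. A family with few reads in 1 group passes the filter only if the other group is higher, so the counts describe the tested families and not all members.

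**Figure D2:**
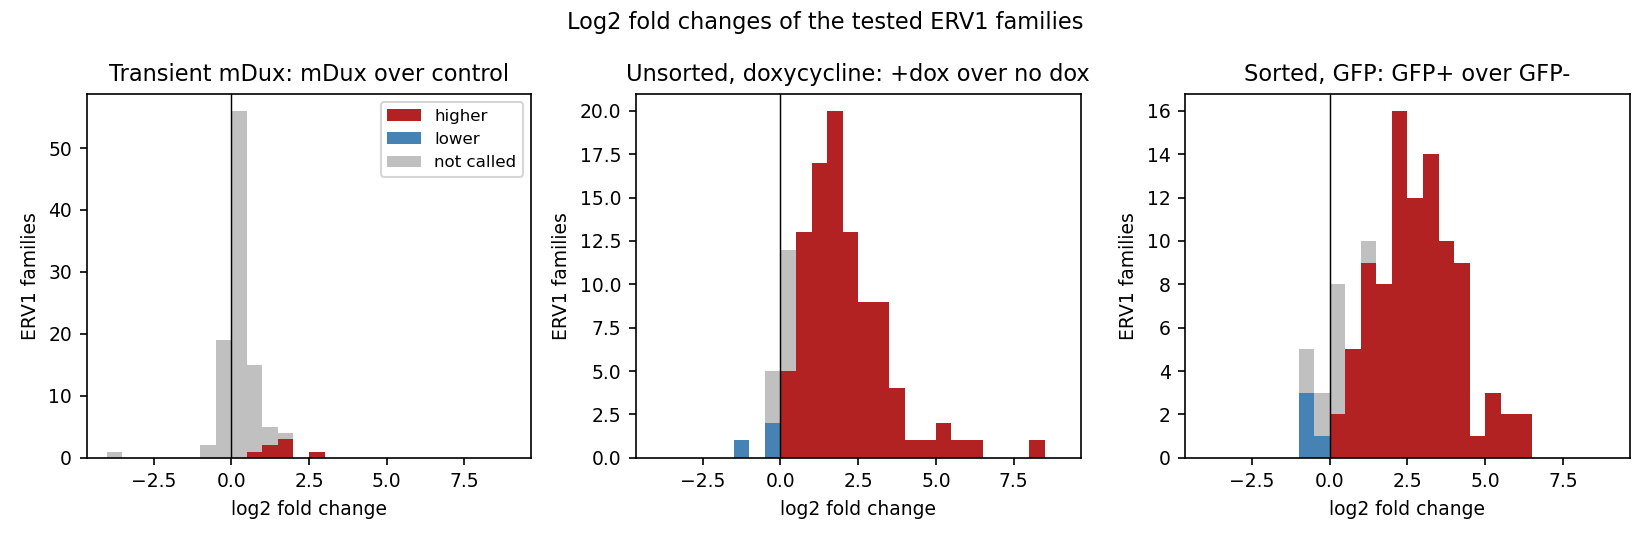
Number of tested ERV1 families by log2 fold change in the transient, unsorted and sorted comparisons, coloured by the edgeR call (higher, lower or not called). The bulk lies near 0 after transient mDUX, with a median of 0.19, and is shifted to the right with doxycycline, with a median of 1.57, and in GFP-positive cells, with a median of 2.47.

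GFP-positive cells held more RNA of most ERV1 families than GFP-negative cells of the same induced line. Of 141 families, 108 were tested, and 93 were higher and 4 were lower (86.1% and 3.7%), against 85.4% and 1.46% of all repeat families, 92% and 1.44% of the other LTR families, and 38% and 30% of all tested genes and families. Their median log2 fold change was 2.47, against 2.07 over all repeat families and 2.43 over the other LTR families. A change of at least 2-fold was reached by 86 of the 93. The same held for 954 of the 1053 higher repeat families and 417 of the 446 higher LTR families of other classes, a similar share. The ERV1 share of counted reads was 0.428% and 0.454% in GFP-positive cells and 0.166% and 0.160% in GFP-negative cells. That of all repeat families was 17.3% and 17.0% in GFP-positive and 4.59% and 4.40% in GFP-negative cells, and ERV1 made up 2.47% and 2.67% of repeat reads in GFP-positive and 3.61% and 3.64% in GFP-negative cells.

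MER89 led this comparison, with 381 and 392 CPM in GFP-positive cells and 5.23 and 5.25 CPM in GFP-negative cells (a log2 change of 6.20 ± 0.07, edgeR adjusted p = 2.20e-16). MER95 followed with 8.35 and 8.70 CPM in GFP-positive cells and 0.0889 and 0.145 CPM in GFP-negative cells (6.15 ± 0.26). MER95 passed the filter on low counts only through the GFP-positive libraries, so its SE is no support for a difference. RLTR6B_Mm was at 970 and 1067 CPM in GFP-positive cells and 18.5 and 16.7 CPM in GFP-negative cells, which was 57.8-fold (5.85 ± 0.08). All 7 families called after transient mDUX were again higher, as were 86.1% of all tested ERV1 families.

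RLTR30C_MM was at 79.8 and 83.2 CPM in GFP-positive cells and 1.87 and 1.61 CPM in GFP-negative cells (5.55 ± 0.10). RLTR41B was at 70.6 and 67.0 CPM in GFP-positive cells and 1.83 and 1.36 CPM in GFP-negative cells (5.43 ± 0.11). MER52-int was at 24.3 and 28.0 CPM in GFP-positive cells and 0.551 and 0.670 CPM in GFP-negative cells (5.42 ± 0.16). These families were close to one another in fold and, within each group, the libraries differed far less than the groups.

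LTR78, a family also known from non-rodent mammals, measured 14.3 and 14.9 CPM in GFP-positive cells and 0.764 and 0.797 CPM in GFP-negative cells (4.22 ± 0.16). RMER2, a rodent LTR family, was at 197 and 204 CPM in GFP-positive cells and 9.79 and 9.11 CPM in GFP-negative cells (4.41 ± 0.07). RMER2 also had a log2 fold change of 3.46 ± 0.06 with doxycycline and of 0.74 ± 0.15 after transient mDUX, where it was not called (edgeR adjusted p = 0.0650). The 11 families without a call were MLTR12, MER31-int, RLTR5_Mm, RLTR24B_MM, MER90a, MER50B, MER34B-int, LTR65, RLTR4_Mm, LTR73 and RLTR30E_MM.

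The VL30 retroviruses, short mouse elements without working viral genes, were higher in both stable-line comparisons in every one of their 5 families. Their internal region MMVL30-int was at 347 and 350 CPM with doxycycline and 36.7 and 41.2 CPM without it (log2 fold change 3.16 ± 0.06), and at 238 and 237 CPM in GFP-positive and 13.0 and 11.2 CPM in GFP-negative cells (4.30 ± 0.07). The related RLTR6-int had log2 fold changes of 3.01 ± 0.06 with doxycycline and 3.78 ± 0.08 in GFP-positive cells. Their LTRs differed widely among themselves.

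RLTR6B_Mm changed 5.87 ± 0.08 on the log2 scale with doxycycline, while RLTR6_Mm changed 0.79 ± 0.11, with 23.3 and 23.8 CPM with doxycycline and 13.3 and 13.9 CPM without it. RLTR6C_Mm lay between them at 1.35 ± 0.27. After transient mDUX only RLTR6B_Mm of these 5 was called, and the other log2 fold changes were 0.45 ± 0.24 for MMVL30-int, 0.49 ± 0.13 for RLTR6-int, 1.05 ± 0.43 for RLTR6_Mm and -0.26 ± 0.41 for RLTR6C_Mm. Reads that match several of these related LTRs could be assigned to any of them, and how they were assigned is not stated in the labels or file headers.

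GLN elements, mouse gammaretroviruses named for their glutamine tRNA primer, moved as internal region and LTR together. MMERGLN-int was at 431 and 452 CPM with doxycycline and 91.2 and 97.4 CPM without it (log2 fold change 2.23 ± 0.06), and MMERGLN_LTR at 73.5 and 73.9 CPM with it and 13.8 and 14.6 CPM without it (2.38 ± 0.09). Between GFP-positive and GFP-negative cells the changes were 1.91 ± 0.09 for MMERGLN-int and 2.08 ± 0.12 for MMERGLN_LTR. Neither was called after transient mDUX, at 0.23 ± 0.12 and 0.02 ± 0.19.

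Murine leukemia virus families had smaller fold changes. MuLV-int was at 29.6 and 31.2 CPM with doxycycline and 7.83 and 8.85 CPM without it (log2 fold change 1.86 ± 0.12), and at 10.7 and 11.5 CPM in GFP-positive and 5.15 and 4.42 CPM in GFP-negative cells (1.21 ± 0.13). RLTR4_MM-int changed by 1.34 ± 0.07 with doxycycline and 0.82 ± 0.09 in GFP-positive cells. The LTR of these viruses, RLTR4_Mm, was at 8.48 and 8.06 CPM with doxycycline and 5.61 and 6.22 CPM without it (0.48 ± 0.17, edgeR adjusted p = 0.0107), a call that DESeq2 did not make (adjusted p = 0.117), and it was not called between GFP-positive and GFP-negative cells (0.17 ± 0.14). The murine Y-linked retrovirus families were higher in both comparisons, with log2 fold changes of 0.63 ± 0.12 with doxycycline and 1.88 ± 0.24 in GFP-positive cells for MURVY-int and of 2.00 ± 0.07 and 1.28 ± 0.07 for MURVY-LTR.

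MuRRS elements and the LTR-IS families, whose LTR sequences are related, covered a wide span of fold changes. MuRRS-int was at 119 and 134 CPM with doxycycline and 21.8 and 23.9 CPM without it (log2 fold change 2.47 ± 0.08), and at 65.6 and 73.8 CPM in GFP-positive and 3.96 and 3.33 CPM in GFP-negative cells (4.25 ± 0.10). After transient mDUX it was at 16.3 and 14.8 CPM in mDux cells and 9.45 and 5.87 CPM in controls (1.04 ± 0.22), which missed the threshold (edgeR adjusted p = 0.0758). LTRIS_Mm was at 171 and 171 CPM with doxycycline and 11.8 and 13.1 CPM without it (3.77 ± 0.08). MuRRS4-int, a second internal region, was at 437 and 424 CPM with doxycycline and 92.9 and 102 CPM without it (2.14 ± 0.06), and LTRIS_Mus, LTRIS4A and LTRIS5 changed by 2.05 ± 0.06, 2.16 ± 0.12 and 3.31 ± 0.18. In GFP-positive cells these 4 were also higher, by 3.08 to 3.90 on the log2 scale, and none of them was called after transient mDUX, at 0.37 to 0.82.

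LTRIS2 stood apart from LTRIS_Mm. It measured 204 and 209 CPM with doxycycline and 220 and 222 CPM without it (log2 fold change -0.10 ± 0.06, not called), and 65.8 and 63.3 CPM in GFP-positive and 92.1 and 89.0 CPM in GFP-negative cells, where it fell by 0.49 ± 0.06 on the log2 scale (edgeR adjusted p = 7.06e-06). LTRIS4B gave an uneven value in the transient set, with 26 and 24 reads in mDux cells and 487 and 30 reads in controls. Its log2 fold change of -3.57 ± 2.11 (edgeR adjusted p = 0.896) rests on control library A.

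**Figure D3:**
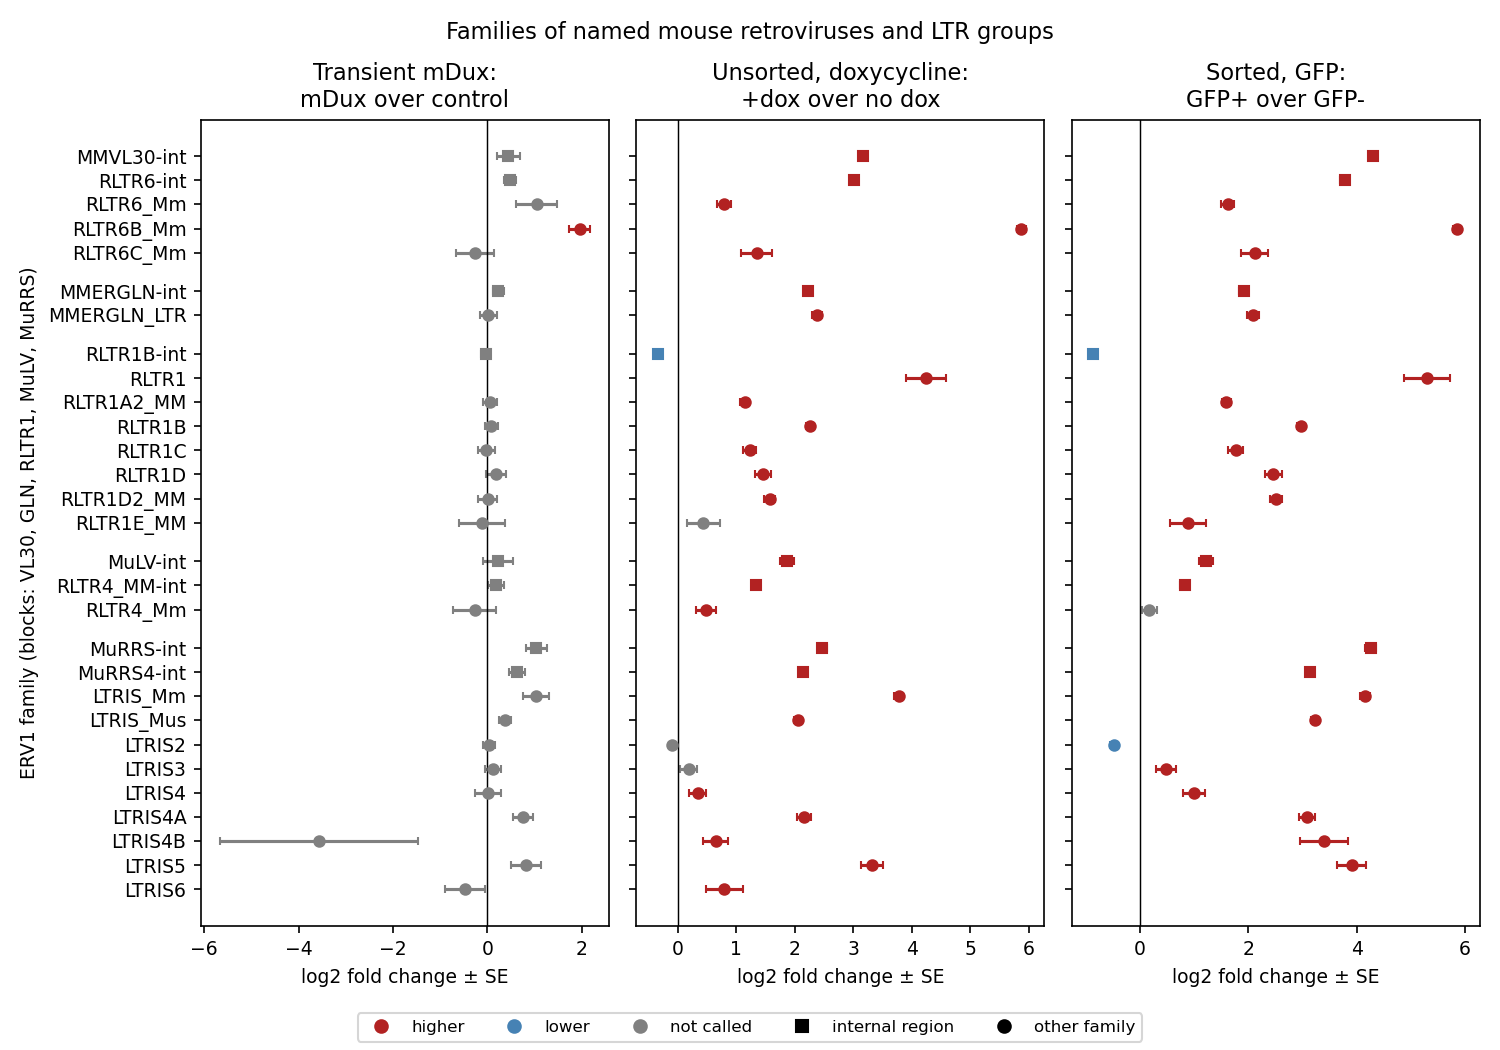
Log2 fold changes ± SE of the families of the VL30, GLN, RLTR1, MuLV and MuRRS or LTR-IS groups in the transient, unsorted and sorted comparisons, with squares for internal regions, circles for other families and colours for the edgeR call. RLTR6B_Mm reaches 5.87 with doxycycline, while RLTR1B-int lies left of 0 in both stable-line comparisons at -0.33 and -0.87.

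Among the families with the most reads, moderate changes were common. RMER5, a rodent LTR family, was at 489 and 490 CPM with doxycycline and 198 and 219 CPM without it (log2 fold change 1.23 ± 0.06), and MLTR14 at 570 and 586 CPM with it and 186 and 211 CPM without it (1.54 ± 0.06). The internal region RodERV21-int went further, with 477 and 515 CPM with doxycycline and 67.7 and 74.4 CPM without it (2.8 ± 0.06), and a change of 4.04 ± 0.09 in GFP-positive cells. After transient mDUX these 3 had log2 fold changes of 0.15 ± 0.12, 0.19 ± 0.11 and 0.37 ± 0.21 and no call. The less abundant internal regions LTR37-int and MER92-int changed by 1.5 ± 0.18 and 1.36 ± 0.17 with doxycycline and by 2.61 ± 0.30 and 2.15 ± 0.35 in GFP-positive cells.

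RLTR1B-int, the internal region that took the most ERV1 reads in uninduced cells, was lower in both stable-line comparisons. It measured 1495 and 1423 CPM with doxycycline and 1824 and 1844 CPM without it (log2 fold change -0.33 ± 0.06, edgeR adjusted p = 1.88e-07). In sorted cells it measured 469 and 474 CPM in GFP-positive and 860 and 863 CPM in GFP-negative cells (-0.87 ± 0.05, edgeR adjusted p = 2.12e-09), which was 1.83-fold higher in GFP-negative cells. After transient mDUX it did not pass the test, at 218 and 220 CPM in mDux cells and 233 and 216 CPM in controls (-0.03 ± 0.09).

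The LTR family of the same name, RLTR1B, ran the other way. It was at 163 and 175 CPM with doxycycline and 32.4 and 38.0 CPM without it (log2 fold change 2.26 ± 0.07), and at 62.8 and 66.3 CPM in GFP-positive and 8.50 and 7.99 CPM in GFP-negative cells (2.97 ± 0.08). The LTR families RLTR1A2_MM, RLTR1C, RLTR1D and RLTR1D2_MM were also higher in both, by 1.15 to 1.57 with doxycycline and by 1.59 to 2.51 in GFP-positive cells on the log2 scale.

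With RLTR1B-int falling and most other families rising, the makeup of ERV1 reads differed between the groups. RLTR1B-int held 12.1% and 11.3% of ERV1 reads with doxycycline and 43.1% and 41.5% without it, and 8.27% and 7.98% in GFP-positive and 54.2% and 56.0% in GFP-negative cells. RLTR6B_Mm held 8.42% and 8.74% with doxycycline and 0.418% and 0.425% without it, and 17.1% and 17.9% in GFP-positive and 1.17% and 1.08% in GFP-negative cells. The 7 families called after transient mDUX held 34.2% and 34.6% of ERV1 reads in GFP-positive and 4.29% and 4.09% in GFP-negative cells. In the transient set they held 12% and 12% in mDux cells and 6.09% and 5.94% in controls. The transient difference follows from the choice of these 7 families by their calls in the same libraries.

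Left without RLTR1B-int, ERV1 reads summed to 10833 and 11213 CPM with doxycycline and 2412 and 2598 CPM without it. In sorted cells the sums were 5200 and 5473 CPM in GFP-positive and 726 and 679 CPM in GFP-negative cells. With it, they were 5669 and 5947 CPM in GFP-positive and 1586 and 1542 CPM in GFP-negative cells. The gap between the groups was thus wider for the sum of the other families than for the whole.

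**Figure D4:**
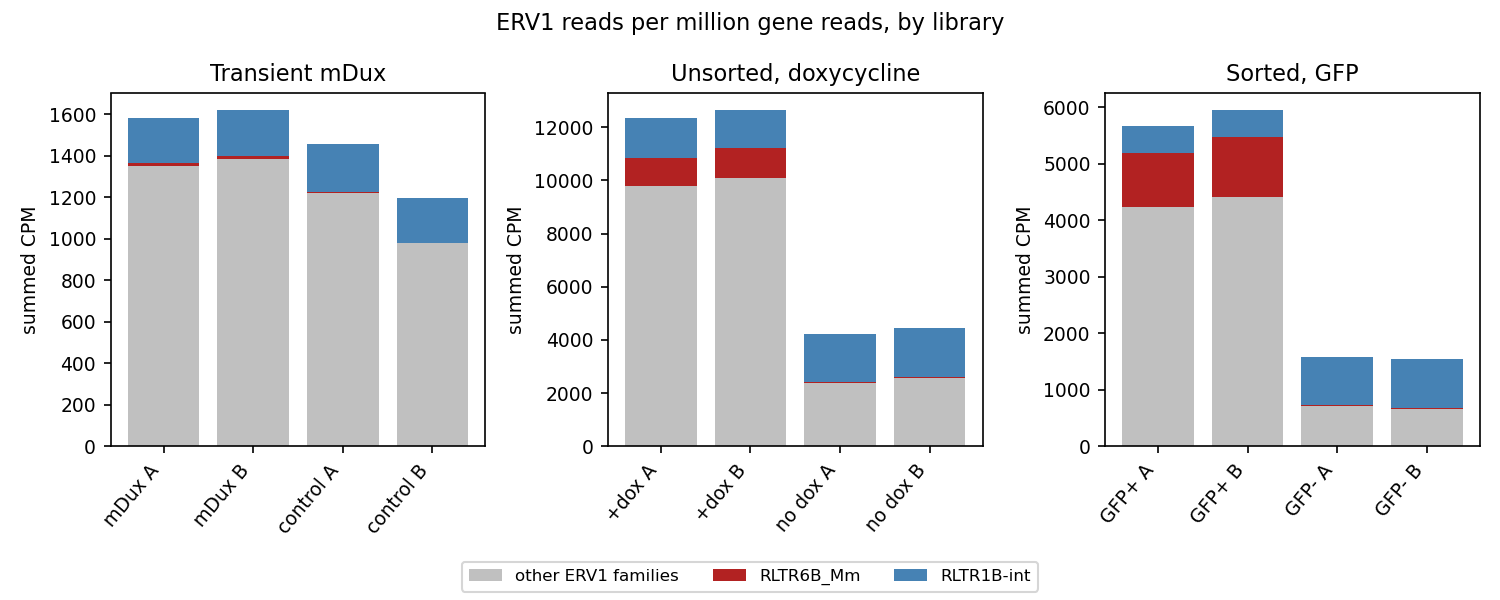
Summed CPM of all ERV1 families in each library, split into RLTR1B-int, RLTR6B_Mm and all other families, for the transient, unsorted and sorted sets on separate linear axes that start at 0. The sums reach 12328 and 12637 CPM with doxycycline against 4235 and 4442 CPM without it, and RLTR1B-int fills 54.2% and 56.0% of the bars of GFP-negative cells.

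Few other families were lower. With doxycycline these were MER31-int, at 4.30 and 1.46 CPM against 6.33 and 6.22 CPM without it (log2 fold change -1.17 ± 0.24), and MER34B-int, at 21.5 and 22.3 CPM against 24.1 and 30 CPM without it (-0.31 ± 0.10). Both calls were lost by DESeq2 (adjusted p = 0.167 and 0.111), and 1 library decided each: MER31-int had an edgeR adjusted p of 0.0753 and a log2 fold change of -0.54 without +dox library B, and MER34B-int an adjusted p of 0.309 without no-dox library B. In sorted cells MER31B was lower, at 8.67 and 8.25 CPM in GFP-positive and 13.8 and 14.8 CPM in GFP-negative cells (-0.76 ± 0.11, edgeR adjusted p = 3.28e-05).

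MER34-int was the 1 family called in opposite directions. It measured 8.60 and 8.45 CPM with doxycycline and 5.15 and 5.02 CPM without it (log2 fold change 0.74 ± 0.18, edgeR adjusted p = 9.57e-05), but 1.61 and 1.77 CPM in GFP-positive and 2.99 and 2.86 CPM in GFP-negative cells (-0.79 ± 0.20, edgeR adjusted p = 0.00337). The difference between these effects was not tested.

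All 3 families lower with doxycycline were internal regions, but DESeq2 did not make the calls of MER31-int and MER34B-int. Whether internal regions and other families differ was not tested. Of the internal regions, 17 of 21 were higher with doxycycline and 3 were lower, and in sorted cells 17 of 21 were higher and 2 were lower. The other families, mostly LTRs, were higher in 80 of 89 with doxycycline, the remaining 9 having no call, and higher in 76 of 87 and lower in 2 in sorted cells. Of all repeat families, 85.8% were higher and 1.26% lower with doxycycline, and 85.4% and 1.46% in sorted cells. Of all tested genes and families, 37.9% were higher and 29% lower with doxycycline, and 38% and 30% in sorted cells. The medians were 1.58 and 1.57 on the log2 scale with doxycycline and 2.61 and 2.46 in sorted cells, for internal regions and other families in that order.

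Families with mouse or rodent names, such as RLTR, LTRIS and RMER, were higher in 52 of 57 with doxycycline and in 50 of 56 in GFP-positive cells. Families with other names, such as MER and LTR, many of them older and shared between mammals, were higher in 45 of 53 with doxycycline and 43 of 52 in GFP-positive cells. Their medians were 2.37 for rodent names and 2.63 for other names in sorted cells, and 1.57 for each with doxycycline. Of all repeat families, 85.8% were higher with doxycycline and 85.4% in GFP-positive cells. The shares over all tested genes and families were 37.9% and 38%, in that order. A few mouse elements, such as MERV1_I-int and MLTR14, fall under the other names because the grouping goes by the start of a name.

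Per kilobase of the length that the tables list for a family, the order of levels changed. Among the 91 families with at least 100 reads with doxycycline, RLTR30C_MM led with 24.8 CPM per kb, before RLTR41B with 16.9, MER95 with 11, RLTR6B_Mm with 7.47 and MER89 with 6.97 CPM per kb, against a median of 1.20 CPM per kb. Among the 82 families with at least 100 reads in uninduced cells, MER34B-int led with 5.70 and RLTR1B-int followed with 5.17 CPM per kb, against a median of 0.353 CPM per kb. What the listed length measures is not given, and it differed between the transient and the stable-line tables for 136 of 138 shared families, so values per kilobase compare families within a set.

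GFP-positive cells had RLTR30C_MM at 12.9, MER89 at 11, RLTR6B_Mm at 7.10, RLTR41B at 6.77 and MER95 at 6.0 CPM per kb, over a median of 0.452 in 87 families. In GFP-negative cells RLTR1B-int led with 2.43 CPM per kb, over a median of 0.0820 in 70 families. Among families with at least 100 reads in the group, the same 5 LTR families thus stood highest per kilobase in +dox and in GFP-positive cells. Below that cutoff, LTR58 was at 17.3 and MER101B at 11.4 CPM per kb with doxycycline. In uninduced cells LTR58 was at 10.8 and MER50B at 6.73 CPM per kb, also below the cutoff.

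Families kept much the same order between both stable-line comparisons, which share no library. Over 106 families tested in both, Spearman's rho between log2 fold changes was 0.87 and Pearson's r was 0.85, as a description across families that share libraries and are not independent. Of these 106, doxycycline gave 94 higher calls and the GFP sort 92, with 88 families shared by both, and 1 family was called lower in both. The transient comparison stood further off, with a rho of 0.56 against the unsorted and 0.60 against the sorted comparison over 101 families each. RLTR30C_MM, RLTR6B_Mm, MER89 and RLTR41B, at ranks 1 to 4 by log2 fold change after transient mDUX, were at ranks 3 to 6 with doxycycline. In sorted cells they were at ranks 4, 3, 1 and 5, in that order. The other families called after transient mDUX stood further down. RLTR14-int was at ranks 29 with doxycycline and 41 in sorted cells, MERV1_I-int at 23 and 21, and RLTR41A2 at 21 and 33.

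**Figure D5:**
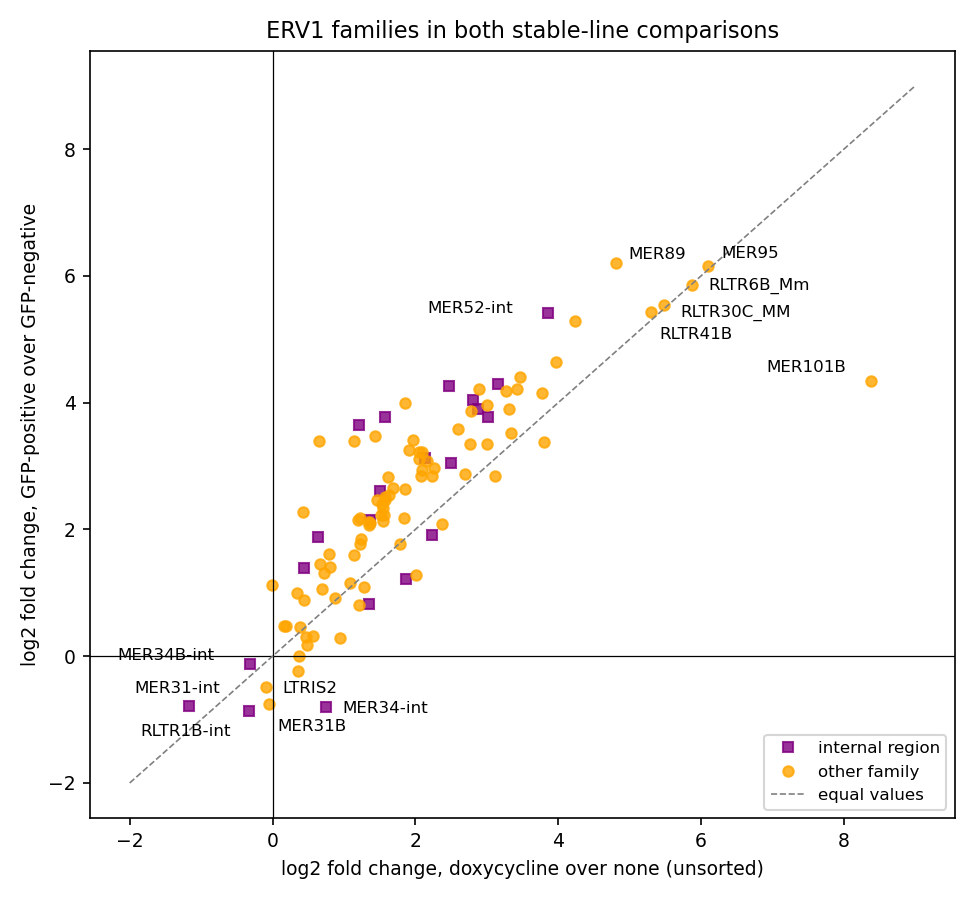
Log2 fold change of each ERV1 family with doxycycline over none (x axis) against that in GFP-positive over GFP-negative cells (y axis), with internal regions as squares and a dashed line of equal values, over 106 families with a Spearman's rho of 0.87. RLTR6B_Mm, RLTR30C_MM, RLTR41B and MER95 lie close to that line at the top, MER34-int is the lowest point at the right of 0, and the place of MER101B depends on how its 0 reads in uninduced cells are smoothed.

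GFP-negative induced cells were also compared with uninduced cells by fitting all 8 libraries of the stable line at once. Of 141 ERV1 families, 119 were tested, and 103 were lower in GFP-negative cells and 3 were higher (86.6% and 2.52%), against 91.1% and 1.44% of all repeat families and 38.2% and 40.7% of all tested genes and families. The median log2 fold change was -1.56 over ERV1 families, while that of genes was 0.14. Sorting, the induction without GFP and any other difference between the sorted and the unsorted libraries cannot be told apart here. Repeat reads were 4.59% and 4.40% of counted reads in GFP-negative cells and 15.4% and 15.9% in uninduced cells, and 23 of 30 silencing genes were higher and 6 lower, with Dnmt3b at a log2 fold change of 3.80 ± 0.07. The part of these shifts in the ERV1 values was not tested.

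RLTR6B_Mm was one of the 3 higher families, with 23.2 and 21.0 CPM in GFP-negative and 14.6 and 15.6 CPM in uninduced cells on the scale of the joint fit (log2 fold change 0.55 ± 0.09, edgeR adjusted p = 1.10e-06). RLTR4_MM-int (0.33 ± 0.08) and RLTR4_Mm (0.36 ± 0.15) were the others. When libraries were scaled by gene totals without TMM factors, the 3 values became -0.04, -0.26 and -0.23. RLTR1B-int was lower, at 1079 and 1082 CPM in GFP-negative and 1502 and 1521 CPM in uninduced cells (-0.48 ± 0.05), as were MMVL30-int (-1.08 ± 0.08) and MuRRS-int (-2.04 ± 0.11). The steepest falls were those of LTRIS4B (-4.36 ± 0.36), MER110-int (-4.09 ± 0.61), LTR58 (-4.05 ± 0.50), LTR29 (-3.59 ± 0.76) and MURVY-int (-3.50 ± 0.17), then of MER65-int, MER67A, MER110, LTRIS6 and MER57-int at -3.38 to -3.21. Of these 10, MURVY-int alone exceeded 5 CPM in uninduced cells, at 0.958 and 1.02 CPM in GFP-negative and 11.7 and 10.8 CPM in uninduced cells. LTR29 had 10 and 8 reads in uninduced cells. The filter ran over all libraries of the stable line, so a family with few reads in GFP-negative cells was tested only through other groups. The SEs of such families are no support for a difference. All values of this comparison share libraries with both other stable-line comparisons.

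Genes of the machinery that silences retroviruses moved in both directions. Of 30 such genes, 12 were higher and 13 lower with doxycycline, and 13 were higher and 12 lower in GFP-positive cells. Among all tested genes and families, 37.9% were higher and 29% lower with doxycycline, and 38% and 30% in GFP-positive cells. Zfp809 was at 317 and 318 CPM with doxycycline and 51.0 and 58.2 CPM without it (log2 fold change 2.54 ± 0.06), and at 352 and 356 CPM in GFP-positive and 54.3 and 55.4 CPM in GFP-negative cells (2.69 ± 0.05). It was the 1 gene of the 30 called after transient mDUX, at 73.4 and 76.8 CPM in mDux cells and 44.0 and 37.9 CPM in controls (0.88 ± 0.12, edgeR adjusted p = 0.00599), and missed the threshold without mDux library A (adjusted p = 0.0541) or B (adjusted p = 0.106).

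Trim28, the scaffold that zinc-finger proteins recruit, was higher by 0.70 ± 0.06 with doxycycline and by 0.69 ± 0.05 in GFP-positive cells on the log2 scale, and Setdb1, which methylates histone H3, by 0.27 ± 0.06 and 0.53 ± 0.05. Dnmt1, the maintenance DNA methyltransferase, was lower with doxycycline, at 162 and 163 CPM against 222 and 220 CPM without it (-0.45 ± 0.06), and was not called in sorted cells (-0.10 ± 0.05). Suv39h2, another histone methyltransferase, was lower in both, at -0.94 ± 0.09 and -0.91 ± 0.10.

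Stem cell markers fell in the same comparisons. Of 10 markers, 9 were lower with doxycycline and 10 in GFP-positive cells, against 29% and 30% of all tested genes and families. After transient mDUX the log2 fold changes of the 10 markers lay between -0.17 for Fgf4 and 0.09 for Pou5f1. Their summed level was 4948 and 4704 CPM with doxycycline and 8132 and 8202 CPM without it, and 3832 and 3616 CPM in GFP-positive and 5299 and 5405 CPM in GFP-negative cells. The 6 endoderm markers summed to 10.4 and 10.5 CPM with doxycycline and 4.24 and 3.89 CPM without it, and to 6.14 and 6.90 CPM in GFP-positive and 3.13 and 4.0 CPM in GFP-negative cells. Of the 4 tested, 3 were higher with doxycycline and Dab2 was lower (log2 fold change -1.19 ± 0.43). In GFP-positive cells 3 were higher and Dab2 was not called (-0.33 ± 0.23). Of all tested genes and families, 37.9% were higher with doxycycline and 38% in GFP-positive cells. The fibroblast markers summed to 27.3 and 25.9 CPM with doxycycline and 9.27 and 7.29 CPM without it, of which Thy1 gave 19.9 and 19.6 CPM with it and 1.70 and 1.55 CPM without it. In sorted cells they summed to 19.9 and 22.3 CPM in GFP-positive and 5.62 and 6.14 CPM in GFP-negative cells. Against 38% of all tested genes and families, 3 of the 4 tested fibroblast markers were higher. These were Thy1, at 10.8 and 11.2 CPM in GFP-positive and 0.711 and 0.905 CPM in GFP-negative cells, Col1a1, at 5.50 and 6.73 CPM in GFP-positive and 2.20 and 1.77 CPM in GFP-negative cells, and Col1a2, with a log2 fold change of 3.22 ± 0.38. The part of these marker shifts in the ERV1 values was not tested.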

How the data were processed

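Poly(A) RNA of 12 samples was sequenced from stranded libraries, as 50 bp single-end reads in the transient set and 125 bp paired-end reads in the stable line, per the labels' protocols. The authors deposited 3 count tables, with unnormalized counts per gene and repeat family, per the file headers, beside their own log2 fold changes and adjusted p-values. From the authors' deposited tables, 9, 87 and 87 ERV1 families were called higher and 0, 3 and 4 lower in the transient, unsorted and sorted comparisons. Novoalign 2.8, DESeq2 and the build mm10 are named, with no role, per the submitters' processing notes. Counting tool, annotation, repeat library and the handling of multi-mapping reads are not stated there.

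Column names number the libraries of a group from 0 and titles from 1, so columns were tied to groups and the libraries called A and B. The labels do not tell whether these were separate cultures, and the p-values reflect only the spread among these libraries, which could be technical. Genes and families were fitted together with edgeR 4.0.16 (quasi-likelihood F-test, robust) in R 4.3.3, kept by filterByExpr (minimum count 10, minimum total 15), with library size and TMM factor from genes alone and Benjamini-Hochberg adjustment over all tested genes and families (threshold 0.05). The biological coefficient of variation was 11.9%, 3.78%, 5.04% and 4.56% in the transient, unsorted, sorted and joint fits. The SE is the log2 fold change divided by the square root of F. An exact permutation test of 2 libraries against 2 cannot go below p = 0.333 (two-sided) and was not used. Bounds against 0 reads cover counting error only.

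Named with values were the 10 called families of largest change averaging at least 5 CPM in the higher group of a comparison, those called lower (up to 10 per comparison), the 10 with most reads, internal regions of at least 5 CPM, and the VL30, GLN, RLTR1, MuLV and MuRRS groups; other families are named where a count or likeness rests on them, after their values were seen. The members and lists were chosen with earlier results of these data known. Alternatives were DESeq2 1.42.0 and its size factors, gene totals, all counted reads, other filters, adjustment over repeat families, a replicate block and leaving out each library. The script was tested on simulated data. No ERV1 consensus sequence or position was used here.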

Additional observations from a re-analysis of the deposited data

Results flagged for a closer look

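Some values stood apart. In 6 of the 101 ERV1 families tested in both sets, both libraries moved one way after transient mDUX and the other way with doxycycline, and the differences were not tested. LTRIS4B had a log2 fold change of -3.57 ± 2.11 after transient mDUX and 0.65 ± 0.22 with doxycycline. Its transient value rests on the 487 reads of control library A, and its doxycycline value was 0.38 (edgeR adjusted p = 0.282) without +dox library B. LTRIS6, with under 1 CPM in each transient library, had -0.47 ± 0.42 after transient mDUX and 0.80 ± 0.31 with doxycycline, a call lost without +dox library A (0.55, adjusted p = 0.243) or no-dox library B (0.70, adjusted p = 0.0991). MER34B-int had 0.43 ± 0.16 after transient mDUX and -0.31 ± 0.10 with doxycycline, the second value resting on no-dox library B (-0.14 without it). LTR48B had -0.20 ± 0.23 after transient mDUX and 1.85 ± 0.17 with doxycycline, LTR65 had -0.24 ± 0.21 and 0.94 ± 0.18, and RLTR24B_MM had -0.063 ± 0.14 and 0.56 ± 0.10, in that order. None of the 6 transient values passed edgeR's adjusted threshold, at adjusted p-values of 0.544 to 0.981.

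Outside the members, LTR103b_Mam, whose family label carries a question mark, had 9 and 14 reads in GFP-positive and 2 and 1 reads in GFP-negative cells. Its log2 fold change was 3.97 ± 0.69 (edgeR adjusted p = 0.000201). It passed the filter on low counts only through the GFP-positive libraries, so this p-value is no support for a difference. In the transient and unsorted sets LTR103b_Mam had too few reads to be tested.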

How the results depend on the processing

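For 169 values of named families, 2161 of 2239 recomputed values kept their direction and their side of the threshold, 74 lost the call and 4 reversed. Of the counts of calls, those that moved by over 1.5 times were the following. Transient families higher came to 14 without a filter and 11 with a replicate block, and ranged from 6 to 33 with a library left out; transient families lower ranged from 0 to 2. Families lower with doxycycline were 1 by DESeq2 and 5 with gene totals. Families higher in GFP-negative than in uninduced cells were 1 with all counted reads, by DESeq2 or with DESeq2's size factors, and 0 with gene totals, where RLTR6B_Mm, RLTR4_MM-int and RLTR4_Mm reversed to -0.0401, -0.261 and -0.234. RLTR30C_MM ranged there from -0.664 to 0.0215 with a library left out, reversing without no-dox library B. Gene totals moved the median of genes to -0.22, -0.25 and -0.43 in the unsorted, sorted and GFP-negative comparisons, and relative to that shift most families kept their change. The causes were not tested.

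Labels do not pair libraries by number, and the deviations of same-indexed columns correlated at -0.33, -0.07 and -0.11. With a replicate block, 11 families were higher in the transient, 96 higher and 3 lower in the unsorted, 90 higher and 4 lower in the sorted, and 2 higher and 99 lower in the GFP-negative comparison. With 1 library left in an arm, that library is assumed to vary like the rest. The families that went untested had at most 17 reads in any library, so depth limits what can be said of these 22 to 37 members per comparison.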
